A study of Mus musculus with 6 samples.

Results

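Mitosis and chromosome segregation genes are the genes that a dividing cell uses between the end of DNA replication and the separation of the daughter cells. They were chosen by name as 41 genes for G2/M cyclins, kinases, kinetochore and spindle proteins, motors and cytokinesis proteins, with a mean of at least 1 TPM over the libraries (TPM is a transcript's abundance per length, scaled to the same total in every library). All 41 were among the 36333 genes of the deposited tables and all reached that mean, as did 11551 genes in all. Bone marrow derived macrophages were grown for 7 days in 10 ng/mL of macrophage colony-stimulating factor (M-CSF), replated at 250000 cells per well, and given 100 µM stearic acid, a saturated fatty acid, for 24 h (3 libraries), or the same volume of its ethanol vehicle for 24 h (3 libraries). The labels give C57BL/6 as the genotype of all 6 libraries, and do not say whether the medium with stearic acid or vehicle held M-CSF. They number the replicates 1 to 3 in each group without saying whether these were separate mice or cultures, so each p-value measures only the spread between libraries, and that spread may be technical.

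In a cycling cell, cyclin A and cyclin B bind the kinase CDK1 and drive entry into mitosis. Kinetochores attach chromosomes to the spindle, a checkpoint holds anaphase until they are attached, and the anaphase-promoting complex then destroys cyclin B and securin. Transcripts of these genes peak together in G2 and M phase and are low in resting cells; their promoters are bound by the DREAM repressor complex in resting cells and by B-MYB with MuvB and FOXM1 in cycling cells. M-CSF is a growth factor for macrophages, and macrophages grown in it from bone marrow can still divide.

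Sequencing depth, estimated from the smallest steps of RPKM (reads per kilobase, scaled to depth), lay between 64.0 and 76.4 M reads or pairs in the stearic acid libraries and between 58.1 and 80.8 M in the vehicle libraries, where 1 TPM equals 19.1 to 27.7 of them per kilobase. Across all tested genes libraries correlated at 0.988 to 0.996 within stearic acid, 0.996 to 0.998 within vehicle and 0.97 to 0.993 between the groups. All 8 macrophage markers listed (Adgre1, Csf1r, Cd68, Itgam, Fcgr1, Mertk, Cx3cr1 and Lyz2) passed the filter. Their summed levels were 23256 to 28903 TPM with stearic acid and 32909 to 33823 TPM with vehicle, most of it Lyz2. At the adjusted p threshold of 0.05 used below, 11.9% of all tested genes fell and 12.8% rose. Of the 8 markers 5 fell (Adgre1, Itgam, Fcgr1, Cx3cr1 and Lyz2), Cd68 rose and 2 did not pass. None of these 5 falls was called without vehicle library 2, and only that of Cx3cr1 without vehicle library 3. Itgam, Fcgr1 and Lyz2 were not called without vehicle library 1, nor Itgam and Lyz2 without stearic acid library 3, nor Lyz2 with median-of-ratios or quantile scaling. The rise of Cd68 was called only without stearic acid library 1 or 2 among the 6 fits that left out a library.

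The cyclin, kinase and topoisomerase promoters below are shown because their windows hold letters of known cell cycle promoter motifs. Whether these motifs bear on the fall of the transcripts was not tested. The CHR element (cell cycle genes homology region, TTTGAA or TTTAAA), bound by MuvB complexes, and the CCAAT box, bound by NF-Y, are in capitals on either strand, so that TTCAAA is TTTGAA and ATTGG is CCAAT read from the other strand. Each sequence is the RefSeq window (GRCm38.p6) from 250 bases before to 50 bases after the annotated start, 5′ to 3′ on the gene's strand.
Ccnb2, chr9:70421505-70421804, minus strand: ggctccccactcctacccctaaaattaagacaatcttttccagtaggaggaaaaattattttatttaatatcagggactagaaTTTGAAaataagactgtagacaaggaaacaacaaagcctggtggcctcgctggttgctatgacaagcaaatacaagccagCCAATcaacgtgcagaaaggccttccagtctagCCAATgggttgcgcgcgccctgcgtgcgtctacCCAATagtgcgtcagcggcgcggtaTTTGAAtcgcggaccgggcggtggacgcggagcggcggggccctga
Cdk1, chr10:69352863-69353162, minus strand: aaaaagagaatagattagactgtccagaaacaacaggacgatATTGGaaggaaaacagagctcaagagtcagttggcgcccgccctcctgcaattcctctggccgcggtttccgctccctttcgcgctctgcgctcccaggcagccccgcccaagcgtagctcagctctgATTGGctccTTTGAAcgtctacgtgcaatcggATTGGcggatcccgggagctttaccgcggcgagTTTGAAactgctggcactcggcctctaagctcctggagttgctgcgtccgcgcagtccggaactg
Plk1, chr7:122159185-122159484, plus strand: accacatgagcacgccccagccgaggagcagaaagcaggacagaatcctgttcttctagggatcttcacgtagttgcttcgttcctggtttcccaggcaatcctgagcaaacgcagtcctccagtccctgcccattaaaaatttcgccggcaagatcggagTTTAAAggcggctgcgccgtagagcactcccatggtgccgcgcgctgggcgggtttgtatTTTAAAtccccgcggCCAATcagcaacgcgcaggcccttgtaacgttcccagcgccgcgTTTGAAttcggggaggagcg
Top2a, chr11:99024140-99024439, minus strand: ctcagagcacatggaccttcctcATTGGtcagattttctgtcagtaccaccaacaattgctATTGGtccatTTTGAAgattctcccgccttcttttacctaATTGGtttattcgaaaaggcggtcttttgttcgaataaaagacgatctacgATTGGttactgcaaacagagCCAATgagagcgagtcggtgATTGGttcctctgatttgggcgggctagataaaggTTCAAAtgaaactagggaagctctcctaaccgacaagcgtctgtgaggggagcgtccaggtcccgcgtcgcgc
RefSeq promoters were given for 36 of the 41 genes, with 38 windows in all. TTTGAA or TTTAAA was found on either strand in 33 of these 38 windows (86.8%), against 27.6% of all 32851 windows of the table and 19.3% of the 11373 windows of tested genes. CCAAT was found in 30 (78.9%), against 37.4% of all windows and 37.9% of those of tested genes, and both motifs were found in 28 (73.7%), against 10.7% and 7.6%. In 24 windows (63.2%) a CHR match began within 60 bases before to 20 bases after the start, against 7.68% of all windows. A CHR match overlapped a CCAAT match in 1 pair over the 38 windows, in Cdca8. In Ube2c, CCAAT matches on opposite strands overlapped each other. Of the genes described next, Nuf2 and Nusap1 had neither motif in their window, nor did Pttg1. The windows of Aurka, Cdca3, Ect2, Kif2c and Pttg1 lie inside the annotated span of the gene, and all of these but that of Pttg1 hold a CHR match. The matches are descriptions of letters, and no binding was measured.

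All 41 transcripts were lower in every stearic acid library than in every vehicle library, and 40 fell past the threshold (limma-trend on log2(TPM + 1), Benjamini-Hochberg adjusted p under 0.05 over the 11551 tested genes). Among all tested genes, 24.7% passed in either direction, 11.9% fell past the threshold and 21.7% had stearic acid libraries wholly below vehicle. The fold changes lay between -0.64 and -0.22 on the log2(TPM + 1) scale, with standard errors of 0.07 to 0.16. Their median was -0.47, against -0.03 over all tested genes. The 8 macrophage markers had a similar median, -0.46, with a range of -0.67 to 0.3. In TPM, group means were 14.6% to 35.4% lower with stearic acid, with a median of 28.4%. The exception to the call was the securin gene Pttg1 (adjusted p = 0.054). In libraries of whole cultures, fewer cells in G2 and M phase and less of these transcripts per cell cannot be told apart.

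Summed over the 41 genes, the level was 4648, 3610.0 and 4331 TPM in stearic acid libraries 1 to 3, against 5698, 5651 and 6206 TPM in vehicle libraries 1 to 3. These sums were 0.361% to 0.465% of the library with stearic acid and 0.565% to 0.621% with vehicle. Stearic acid library 2 was the lowest and library 1 the nearest to vehicle, while vehicle library 3 was the highest. From the vehicle mean the median gene differed by -0.32, -0.69 and -0.42 on the log2(TPM + 1) scale in stearic acid libraries 1 to 3, and by -0.04, -0.06 and 0.09 in the vehicle libraries. Library 2 was the lowest of the stearic acid libraries in all 41 genes, as it was in 94.5% of the 1374 genes that fell among all genes tested. The stearic acid libraries thus differed more among themselves than the vehicle libraries did.

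**Figure D1:**
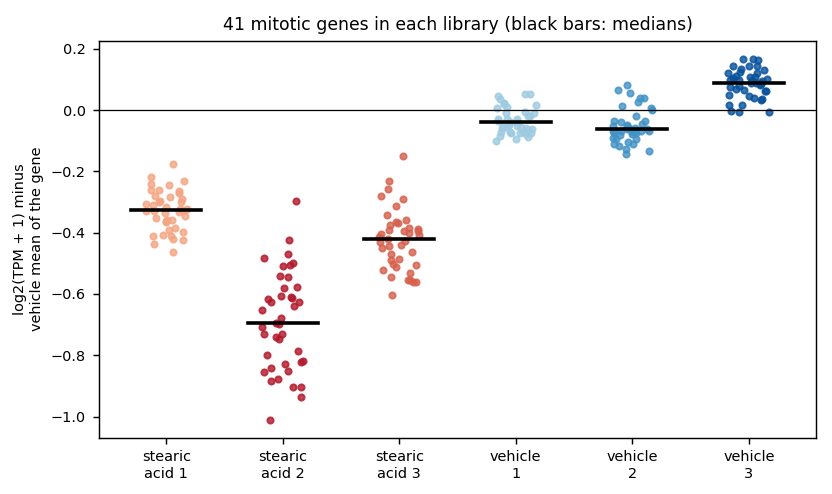
Each point is 1 of the 41 genes, placed by its log2(TPM + 1) minus the gene's mean over the 3 vehicle libraries (vertical axis), in each library (horizontal axis). Black bars are medians, at -0.32, -0.69 and -0.42 in stearic acid libraries 1 to 3 and at -0.04, -0.06 and 0.09 in vehicle libraries 1 to 3; every stearic acid point lies below 0.

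The number of calls depended on the libraries and on the filter on low values. Without vehicle library 1, 2 or 3 the calls were 26, 6 and 8 of 41, while 3.37%, 1.44% and 1.23% of all tested genes fell past the threshold, and the median fold change was -0.50, -0.52 and -0.45. Adjusted p then reached 0.18, 0.078 and 0.15 at most. Without stearic acid library 1, 2 or 3 there were 40, 38 and 28 calls, with 24.1%, 8.12% and 3.64% of tested genes lower. Without both libraries numbered 2 there were 39 (8.34% of tested genes lower), and with the replicate number as a block 41 (17.3%). Ccnb2, Cdk1, Aurka and Ect2 kept their calls whichever 1 of the 6 libraries was left out. With no filter on low values, which raised the number of genes tested to 21632, 11 passed, with 1.64% of tested genes lower.

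The cyclins and their kinase fell, all 4 of 4. Ccnb2, cyclin B2 (chromosome 9, 70407689 to 70421554 in GRCm38), was at 196, 147 and 183 TPM in stearic acid libraries 1 to 3, against 267, 258 and 288 TPM in vehicle libraries 1 to 3. It had the largest fall of the 41 genes (log2 -0.64, SE 0.11, limma adjusted p = 0.0061); the lowest vehicle library, library 2, stood well above the highest stearic acid library, library 1. Cdk1, the kinase that binds these cyclins (chromosome 10, 69335146 to 69352912), was at 136, 122 and 139 TPM with stearic acid, against 175, 191 and 182 TPM with vehicle, and had the smallest adjusted p of the 41 (0.0051, limma; log2 -0.46, SE 0.07). Ccna2, cyclin A2, which acts from S phase into early mitosis, was at 182, 157 and 180.1 TPM, against 215, 218 and 239.5 TPM (log2 -0.37). Ccnb1, cyclin B1, averaged 149 ± 11.9 TPM with stearic acid and 204 ± 13.3 TPM with vehicle (SD, n = 3 each). Per length, Ccnb2 was the most abundant of the 3 cyclins in the vehicle libraries, and with stearic acid Ccnb2 and Ccna2 averaged 175 ± 25.4 and 173 ± 13.6 TPM, closer than their spread. Without vehicle libraries 1, 2 or 3, 4, 2 and 3 of the 4 passed.

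Among the mitotic kinases all 3 fell. Plk1, Polo-like kinase 1, which acts at centrosomes, kinetochores and the midbody (chromosome 7, 122159435 to 122169884), was at 116, 97.1 and 115 TPM with stearic acid, against 141, 131 and 141 TPM with vehicle (log2 -0.34, SE 0.08, limma adjusted p = 0.022). Aurka, Aurora kinase A of the centrosome and spindle poles, was at 74.2, 69.3 and 75.5 TPM, against 98.4, 93.3 and 99.9 TPM (log2 -0.41, SE 0.07). Nek2, a kinase of centrosome separation, was at 52.2, 43.2 and 49.6 TPM, against 66.9, 61.4 and 73.9 TPM (log2 -0.47). Aurka had little spread within either group (SD 3.26 TPM with stearic acid and 3.46 TPM with vehicle), whereas Plk1 did not pass without vehicle library 1, 2 or 3 or stearic acid library 3 (limma adjusted p up to 0.089). Without vehicle libraries 1, 2 or 3, 2, 2 and 1 of the 3 passed.

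The chromosomal passenger complex corrects wrong attachments at the centromere and later moves to the midzone. Its kinase Aurkb, Aurora kinase B, was at 124, 88.2 and 112 TPM with stearic acid, against 154, 143 and 162 TPM with vehicle (log2 -0.51, SE 0.12, limma adjusted p = 0.019). Birc5, survivin, was at 97.3, 77.6 and 93.3 TPM, against 122, 133 and 134 TPM (log2 -0.54). Cdca8, borealin, was at 149, 130.3 and 149 TPM, against 171, 171 and 184 TPM (log2 -0.30, SE 0.07). All 3 subunits fell, Cdca8 the least, and its call was lost in 5 of the 6 fits that left out a library (adjusted p up to 0.095). Of the 3, 1, 0 and 1 passed without vehicle libraries 1, 2 and 3. Incenp, the scaffold of this complex and not one of the 41, fell by 0.35 on the log2 scale (limma adjusted p = 0.032, up to 0.12 on leaving out a library, where it passed only without stearic acid library 1).

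The 3 kinases of the spindle assembly checkpoint, which delays anaphase until every kinetochore is attached, also fell. Ttk (Mps1), which starts the signal, was at 29, 22.9 and 27.5 TPM with stearic acid, against 35.7, 34.5 and 38.5 TPM with vehicle (log2 -0.45). Bub1, its kinetochore scaffold kinase, was at 71.9, 61.3 and 69.4 TPM, against 79.4, 86.7 and 89.8 TPM (log2 -0.33, SE 0.08, limma adjusted p = 0.023). Bub1b (BubR1), part of the complex that inhibits Cdc20, was at 123, 81 and 103 TPM, against 153, 141 and 164 TPM (log2 -0.59, SE 0.14). In Bub1b the stearic acid libraries spread widely, library 1 being the closest to vehicle and library 2 the lowest. Calls numbered 1, 0 and 0 of 3 without vehicle libraries 1, 2 and 3, and 1 without stearic acid library 3. Checkpoint partners outside the 41 did not all pass: Mad2l1 fell by 0.40 (limma adjusted p = 0.012, and 0.058 and 0.055 without vehicle libraries 2 and 3), whereas Bub3 (log2 -0.18, adjusted p = 0.053) and Mad1l1 (log2 -0.04, adjusted p = 0.77) did not pass.

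Centromere and kinetochore genes fell, 7 of 7, with a median of -0.56. Cenpa, the histone H3 variant of centromeres, was at 139.8, 96.5 and 117 TPM with stearic acid, against 171, 168 and 178 TPM with vehicle (log2 -0.56, SE 0.12, limma adjusted p = 0.014). Nuf2, of the microtubule-binding NDC80 complex, was at 79.9, 66.1 and 80.9 TPM, against 103, 115 and 108 TPM (log2 -0.52). Cenpf, a large outer kinetochore protein, was at 35.8, 21.2 and 28.4 TPM, against 41.5, 40.9 and 49.2 TPM (log2 -0.63, SE 0.16). Cenpf had the highest standard error of the 41, with library 1 of stearic acid not far below the vehicle libraries and library 2 at the bottom (limma adjusted p = 0.026). The 4 NDC80 complex subunits fell by similar amounts, Ndc80 by 0.56, Nuf2 by 0.52, Spc25 by 0.46 and Spc24 by 0.43 on the log2 scale. Per length, Ndc80, Nuf2 and Spc25 averaged 74.1 to 81.7 TPM with stearic acid and 109 to 113 TPM with vehicle, and Spc24 was lower at 41.9 ± 4.83 and 56.6 ± 5.1 TPM. Cenpe, a kinetochore kinesin that moves chromosomes to the spindle equator, fell by 0.58. Calls numbered 5, 0 and 2 of 7 without vehicle libraries 1, 2 and 3, and 4 without stearic acid library 3.

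All 5 kinesin motors of the spindle and chromosome arms fell, within a narrow range of -0.56 to -0.47. Kif11 (Eg5), which pushes spindle poles apart, was at 119, 82.7 and 106 TPM with stearic acid, against 146, 141 and 161 TPM with vehicle (log2 -0.55, SE 0.12, limma adjusted p = 0.017). Kif4, a chromosome-bound kinesin, was at 29, 22.4 and 27.9 TPM, against 35.8, 35.3 and 39.6 TPM (log2 -0.47). Kif22 (Kid), which pushes chromosome arms outward, was at 105, 79 and 92.7 TPM, against 131, 115 and 136 TPM (log2 -0.47). In each of these the lowest vehicle library stood above the highest treated one, by less in Kif22 than in Kif11. Kif15, which helps keep the spindle bipolar, and Kif2c (MCAK), which removes tubulin from microtubule ends, fell by 0.56 and 0.50. Without vehicle libraries 1, 2 or 3, 3, 0 and 0 of the 5 passed, and without stearic acid library 3 the number was 3.

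Spindle assembly genes fell, 4 of 4. Nusap1, a microtubule-bundling protein near chromosomes, was at 111, 76.1 and 101 TPM with stearic acid, against 139, 148 and 153 TPM with vehicle (log2 -0.62, SE 0.13, limma adjusted p = 0.012). Ckap2l, a spindle pole protein, was at 69.5, 52 and 64.6 TPM, against 89.1, 88.4 and 101 TPM (log2 -0.58). Tpx2, which activates Aurora kinase A on the spindle, was at 105, 90.7 and 109 TPM, against 129.8, 127 and 141 TPM (log2 -0.38). Tpx2 fell by less than the other three, and Hmmr, a spindle protein that also binds hyaluronan, by 0.55. Nusap1 shares part of its span with Oip5, a centromere gene that also fell (log2 -0.36, limma adjusted p = 0.027), and the sources used here do not say how reads of overlapping genes were assigned. Without vehicle libraries 1, 2 or 3, 3, 0 and 0 of the 4 passed.

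Central spindle and cytokinesis genes fell, 6 of 6. Racgap1, a subunit of the centralspindlin complex, was at 166, 136 and 157 TPM with stearic acid, against 207, 199 and 220.1 TPM with vehicle (log2 -0.45, SE 0.08, limma adjusted p = 0.0099). Its motor partner Kif23 was at 109.6, 81.4 and 103 TPM, against 133, 127 and 151 TPM (log2 -0.49, SE 0.11). Ect2, the exchange factor that centralspindlin recruits to activate RhoA, was at 46.4, 39.4 and 47.4 TPM, against 60.8, 61.7 and 65.3 TPM (log2 -0.49, SE 0.08). The groups of Ect2 stood clear of each other and its call held whichever library was left out; the call of Kif23 was lost on leaving out any 1 of the vehicle libraries (adjusted p up to 0.089). Prc1, the bundler of antiparallel microtubules, fell by 0.52, Kif20a, the motor that carries passenger proteins to the midzone, by 0.62, and Anln, the contractile ring protein anillin, by 0.43. Calls numbered 5, 2 and 1 of 6 without vehicle libraries 1, 2 and 3.

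Among the role groups, the genes of mitotic exit and proteolysis had the smallest median fall, -0.37 for 4 genes, of which 3 passed. The difference from the other groups was not tested, and genes of other groups, such as Cdca8 (log2 -0.3), fell by less than Ube2c. Ube2c, the ubiquitin-conjugating enzyme of the anaphase-promoting complex, was at 292, 239.6 and 269.9 TPM with stearic acid, against 333, 352 and 366 TPM with vehicle (log2 -0.39, SE 0.08, limma adjusted p = 0.014). Pttg1, securin, the inhibitor of separase, was at 25.4, 24 and 26.7 TPM, against 30.2, 28.6 and 30.4 TPM (log2 -0.22, 95% interval -0.38 to -0.06, adjusted p = 0.054). It was the least abundant of the 41 per length and the only one not called, although its groups did not overlap either; of the scalings tried, it passed with median-of-ratios and quantile (adjusted p of 0.047 and 0.028) and not with RPKM (0.051). Its interval still includes falls as large as that of Ccna2. Cdc20, the activator that the checkpoint inhibits, fell by 0.35 (adjusted p = 0.032) and Cdca3, a mitotic entry protein, by 0.40; Cdc20 passed in 1 of the 6 fits that left out a library, the one without stearic acid library 1. Calls numbered 1, 0 and 0 of 4 without vehicle libraries 1, 2 and 3, 2 without stearic acid library 2 and 1 without stearic acid library 3.

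The most abundant transcript of the set was Top2a, topoisomerase II alpha, which untangles sister chromatids (chromosome 11, 98992947 to 99024199). It was at 376, 264 and 336 TPM with stearic acid, against 462, 458 and 515 TPM with vehicle (log2 -0.57, SE 0.12, limma adjusted p = 0.014). Mki67, the proliferation marker Ki-67 that coats mitotic chromosomes, was at 249, 184 and 220.1 TPM, against 284, 280.5 and 336 TPM (log2 -0.47, SE 0.12, adjusted p = 0.023). Top2a was the most abundant of the 41 per length in every library, Ube2c came next and Mki67 after it. Without vehicle libraries 1, 2 or 3, 1, 0 and 0 of the pair passed, and without stearic acid library 3 only Top2a did. Across the 41 genes, the fold change had a Pearson r of -0.08 and a Spearman rho of 0.02 with log2 mean TPM (across genes of the same libraries, which are not independent).

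**Figure D2:**
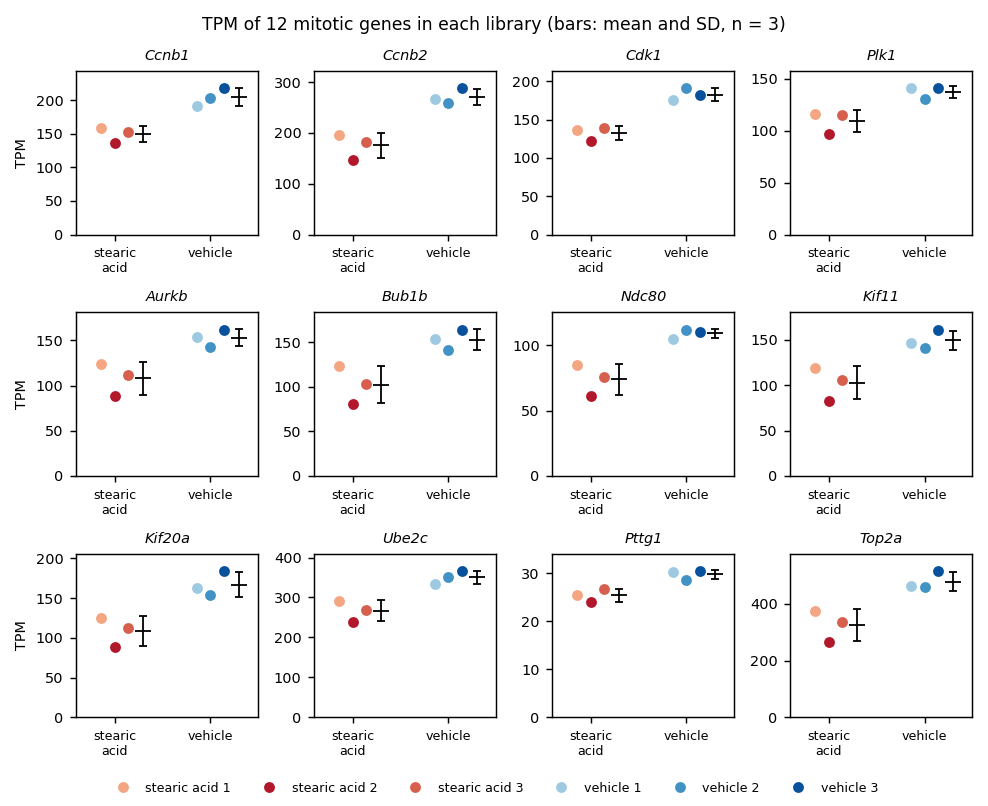
Points are TPM values (vertical axes, from 0) of 12 of the genes in each stearic acid and vehicle library, with black bars for the mean and SD of 3 libraries. In each panel the 3 stearic acid values lie below the 3 vehicle values, as for Ccnb2 with 147 to 196 TPM against 258 to 288 TPM.

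**Figure D3:**
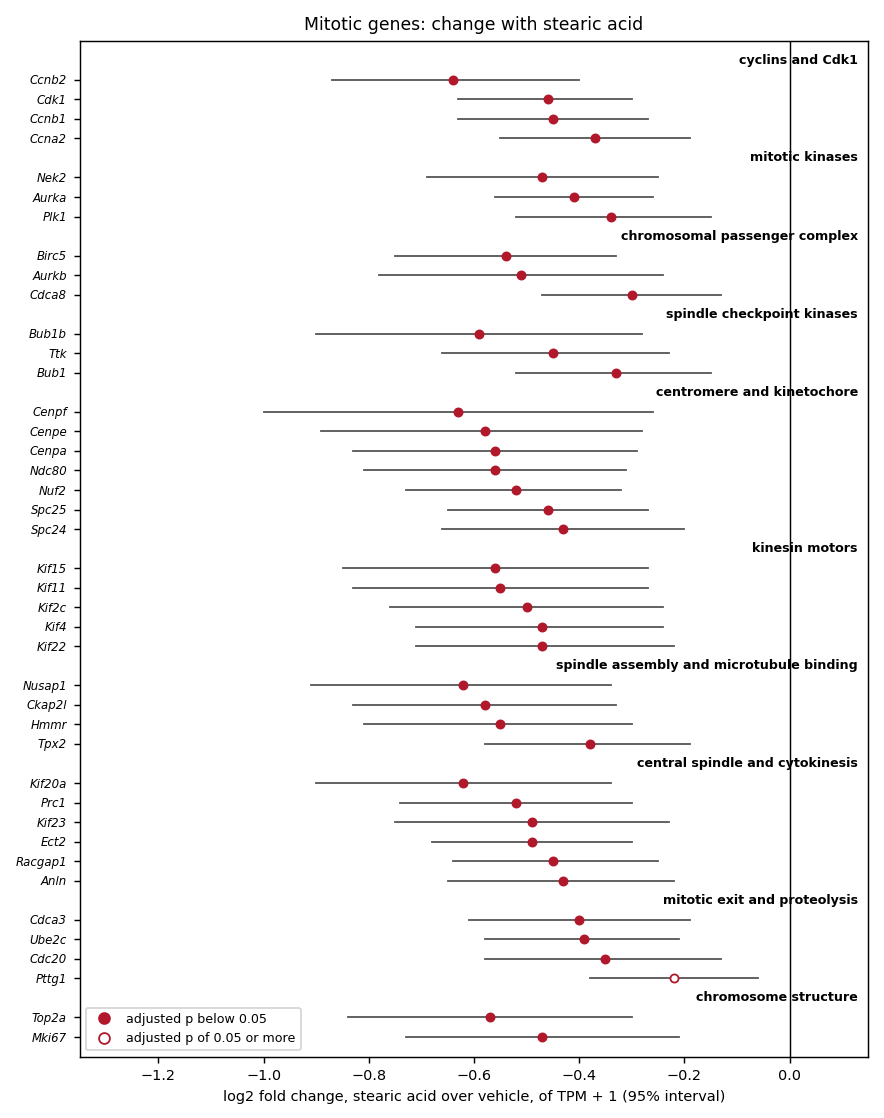
Points are log2 fold changes of TPM + 1, stearic acid over vehicle (horizontal axis), of the 41 genes grouped by role, with 95% intervals from limma that are not adjusted for multiple tests. All points lie between -0.64 and -0.22, and only Pttg1 is drawn open (adjusted p = 0.054).

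Of 85 other mitotic genes, listed by function, 70 fell (82.4%, against 11.9% of all tested genes) and 15 were not called, the median being -0.45. Shcbp1, a midbody protein, was at 53.5, 44.3 and 52.2 TPM with stearic acid, against 67.6, 77.2 and 74 TPM with vehicle (log2 -0.54, SE 0.09, limma adjusted p = 0.0065). Cenpq, of the inner kinetochore, was at 44.9, 35.2 and 42.3 TPM with stearic acid, against 56.2, 62.8 and 63.5 TPM with vehicle (log2 -0.57). Melk, a kinase of dividing cells, was at 48.3, 37.6 and 45.2 TPM, against 62.6, 63.5 and 64.9 TPM (log2 -0.54). In all 3 genes the groups stood apart, with stearic acid library 2 the lowest. The 70 falls became 29, 8 and 8 without vehicle libraries 1, 2 and 3, 35 without stearic acid library 3 and 20 with no filter on low values. Kif3a, a kinesin of intracellular transport, had the highest fold change of the list (log2 0.24, adjusted p = 0.065) and was called higher with median-of-ratios scaling, quantile normalization and RPKM. Also among those that did not pass were Wee1 (log2 -0.02) and Pkmyt1 (log2 -0.05), the kinases that hold CDK1 inactive, and Cdc25a (log2 0.13), a phosphatase that releases it, called higher without stearic acid library 1 (adjusted p = 0.048); these 4 were chosen after their values were seen.

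Condensin and cohesin genes fell in part, 12 of 21 (57.1%, against 11.9% of all tested genes), with 9 not passing and a median of -0.31. Ncaph, a condensin subunit, was at 109, 81.9 and 101 TPM with stearic acid, against 136, 129 and 141 TPM with vehicle (log2 -0.48, limma adjusted p = 0.014). Esco2, which acetylates cohesin, was at 40.4, 27.9 and 35.6 TPM, against 50.5, 52.2 and 55.2 TPM (log2 -0.60). Cdca5 (sororin), which protects cohesin on chromosomes, was at 65.6, 49.8 and 61.7 TPM, against 84.2, 77.8 and 89.6 TPM (log2 -0.51). None of these 3 overlapped between groups, and 21.7% of all tested genes had stearic acid libraries wholly below vehicle. The 12 became 4, 0 and 0 without vehicle libraries 1, 2 and 3, 4 without stearic acid library 3 and 0 with no filter. Of the subunits of the anaphase-promoting complex and their cofactors, 0 of 16 passed by limma, 2 were lower at an unadjusted p under 0.05, and the median was -0.11. With quantile normalization 2 of the 16 passed, and likewise 2 without stearic acid library 1. CHR letters were found in 2 of the 18 promoter windows given for 15 of these genes (11.1%), in 48.8% of those of the other mitotic genes and in 41.2% of those of condensin and cohesin. The share was 40.7% for the DREAM, B-MYB and FOXM1 regulators, whose median fold change was -0.05, 23.5% for DNA replication and S phase, and 18.2% for CDK inhibitors and G1 cyclins, against 19.3% of the windows of all tested genes. The order of the lists by this share differed from their order by fold change, and the relation of the 2 orders was not tested.

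**Figure D4:**
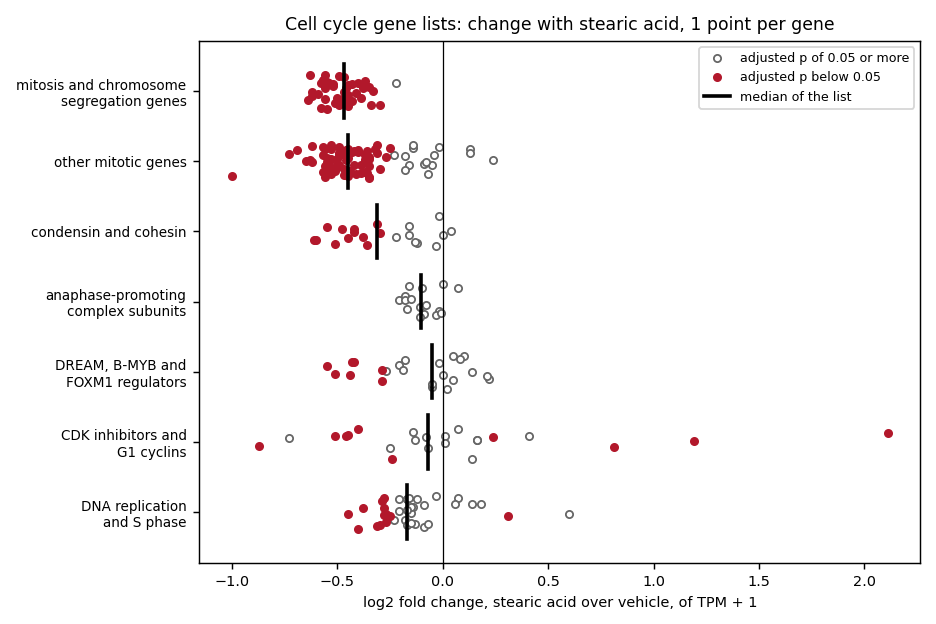
Each point is a gene, placed by its log2 fold change of TPM + 1, stearic acid over vehicle (horizontal axis), in 7 lists of cell cycle genes; red points passed the adjusted p of 0.05 and black bars are list medians. Medians run from -0.47 for the 41 genes and -0.45 for other mitotic genes to -0.05 for the DREAM, B-MYB and FOXM1 regulators.

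Of the genes of DNA replication and S phase, 12 of 37 fell (32.4%, against 11.9% of all tested genes). In this list 1 rose, 24 were not called, and the median was -0.17. The difference from the mitotic genes was not tested. Tk1, thymidine kinase, was at 194, 165 and 195 TPM with stearic acid, against 253, 248 and 252 TPM with vehicle (log2 -0.45, limma adjusted p = 0.0073). Rrm1, a ribonucleotide reductase subunit, was at 227, 192 and 225 TPM, against 277, 284 and 289.8 TPM (log2 -0.40). The riser was Cdt1, which licenses replication origins, at 114, 109 and 108 TPM with stearic acid, against 92.3, 81.8 and 91.5 TPM with vehicle (log2 0.31, adjusted p = 0.017), a call lost without stearic acid library 3 or vehicle library 2 or 3 (up to 0.061). The 12 falls became 2, 1 and 1 without vehicle libraries 1, 2 and 3, 5 and 2 without stearic acid libraries 2 and 3, 4 without both libraries numbered 2 and 3 with no filter.

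Among 23 genes of the DREAM, B-MYB and FOXM1 system, 7 fell (30.4%, against 11.9% of all tested genes). The other 16 were not called, and the median of the list was -0.05. Called higher were 1 with median-of-ratios scaling, 1 with RPKM and 2 without stearic acid library 1. Foxm1, the activator of G2/M genes, was at 83.2, 65.3 and 78.3 TPM with stearic acid, against 103, 91.4 and 109 TPM with vehicle (log2 -0.42, SE 0.10, limma adjusted p = 0.023). Mybl2, which encodes B-MYB, was at 26.8, 32.8 and 31.9 TPM, against 28.2, 27.1 and 29.5 TPM, and the groups overlapped (log2 0.10, SE 0.09, adjusted p = 0.42). The retinoblastoma gene Rb1 was at 36, 27.2 and 30.7 TPM, against 41.6, 39.6 and 46.8 TPM (log2 -0.44), and the repressor gene E2f7 at 17.6, 13.2 and 17.4 TPM, against 21.8, 19.8 and 23.9 TPM (log2 -0.43). Foxm1, Rb1 and E2f7 were lower in every stearic acid library than in any vehicle library, as were 21.7% of all tested genes. None of the 23 passed without a vehicle library, without stearic acid library 3 or with no filter (for Foxm1 the adjusted p then reached 0.097).

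CDK inhibitors and G1 regulators went both ways, with 4 of 23 higher, 6 lower and 13 not passing. Of all tested genes 12.8% rose and 11.9% fell. Cdkn1c, the CDK inhibitor p57, was at 30.4, 38 and 33.5 TPM with stearic acid, against 9.42, 5.79 and 6.35 TPM with vehicle (log2 2.11, SE 0.16, limma adjusted p = 0.00023). Gadd45a, a growth arrest and DNA damage gene, was at 36.9, 38.1 and 35.9 TPM, against 19.4, 20.5 and 22 TPM (log2 0.81, adjusted p = 0.00047), and both rises held whichever library was left out; the groups stood far apart in both genes. Cdkn1a, the CDK inhibitor p21, was instead lower, at 461, 409 and 444 TPM against 529, 483 and 536 TPM (log2 -0.24, adjusted p = 0.044), a call kept in only 1 of those 6 fits. Cdkn2d, another CDK inhibitor, was at 69.8, 60.3 and 69.1 TPM, against 89.4, 87 and 86 TPM (log2 -0.40, adjusted p = 0.0098, and 0.051 without vehicle library 2). Cdkn1b, the inhibitor p27, was at 55, 32.8 and 40.3 TPM, against 49.4, 45.1 and 54.9 TPM, with the groups overlapping (log2 -0.25, adjusted p = 0.29). Ccnd1, cyclin D1, was at 173, 407 and 339 TPM with stearic acid, against 220.1, 224 and 208 TPM with vehicle, so that library 1 lay below and libraries 2 and 3 above every vehicle library (log2 0.41, adjusted p = 0.26). Rises numbered 2 without any 1 vehicle library or stearic acid library 3, and falls 2, 1 and 1 without vehicle libraries 1, 2 and 3 and 3 without stearic acid library 3. With no filter there were 2 rises and 1 fall.

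Csf1r, the receptor for M-CSF, was at 1897, 1391 and 1581 TPM with stearic acid, against 2138, 1848 and 2162 TPM with vehicle (log2 -0.34, SE 0.11). Stearic acid library 1 lay above vehicle library 2, and the fall was not called (limma adjusted p = 0.055), although it was in 2 of the fits that left out libraries, those without stearic acid library 1 and without both libraries numbered 2. Csf1, which encodes M-CSF itself, was higher, at 16.7, 30.3 and 23.4 TPM against 8.14, 4.5 and 6.24 TPM (log2 1.74, SE 0.22, adjusted p = 0.0023). Markers of other cells that bone marrow cultures could hold were also measured. Of 14 neutrophil and granulocyte progenitor markers 3 passed the filter, with a summed level of 13 to 13.6 TPM with stearic acid and 7.85 to 10 TPM with vehicle, from S100a8, Mmp8 and Cebpe for the most part. S100a8 rose (log2 0.81, limma adjusted p = 0.016, and 0.069 without vehicle library 2). Mmp8 also rose (log2 0.32, limma adjusted p = 0.029), and passed in 1 of the 6 fits that left out a library. Cebpe was not called (log2 -0.1, limma adjusted p = 0.45). Lcn2, below the filter and not tested, was higher in every stearic acid library, at a mean of 1.09 against 0.381 TPM. The other markers below the filter overlapped, such as S100a9 (0.145 against 0.295 TPM) and Camp (0.022 against 0.103 TPM). Retnlg was at 0 in every library, and Mpo and Elane did not exceed 0.0822 TPM. Of 7 stem cell and progenitor markers 2 passed the filter, with a sum of 22.6 to 36.6 TPM with stearic acid and 47.7 to 58 TPM with vehicle. Nearly all of it was Cd34, which fell (log2 -0.93, limma adjusted p = 0.0095, up to 0.058 on leaving out a vehicle library). Meis1, the other that passed the filter, was not called (log2 0.04, limma adjusted p = 0.78). Under the filter and not tested, Kit and Gata2 were higher in every stearic acid library than in any vehicle library. Their means were 1.26 and 0.19 TPM with stearic acid, against 0.466 and 0.0736 TPM with vehicle. Hlf was lower in the same way, at 0.0233 against 0.0592 TPM, and Flt3 and Mecom overlapped. Among all tested genes, 22.8% were wholly higher with stearic acid and 21.7% wholly lower. Of 4 monocyte markers 1 passed, Ccr2, with a sum of 5.19 to 13 TPM with stearic acid and 19 to 24.3 TPM with vehicle. Ccr2 fell (log2 -1.26, limma adjusted p = 0.012, and 0.061 and 0.067 without vehicle libraries 2 and 3). Of 11 lymphoid markers 1 passed, Cd79b, with a sum of 1.56 to 2.11 TPM with stearic acid and 2.88 to 3.14 TPM with vehicle. Cd79b fell (log2 -0.62, adjusted p = 0.0055), and the T cell genes Cd3d, Cd3e and Cd3g were at 0. None of the dendritic cell, erythroid and megakaryocyte, or mast cell markers passed the filter, and of 6 stromal markers only Acta2 did. The part of these markers in the fall of the mitotic genes was not tested.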

How the data were processed

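Polyadenylated RNA of 3 stearic acid and 3 vehicle libraries was sequenced with a stranded kit, per the labels' protocols. The authors deposited a table per library with TPM (abundance per length, scaled to the same total) and RPKM (reads per kilobase, scaled to library depth) for 36333 genes, per the file headers. The submitters' processing notes name DRAGEN, with no version, and GRCm38 (mm10). The annotation and the counting rule, strand included, are not stated by any source used. Because TPM values sum to the same total in each library, every change is relative to the other transcripts.

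Tests were limma 3.58.1 (R 4.3.3) with an intensity-dependent prior on log2(TPM + 1), restricted to the 11551 genes averaging 1 TPM or more, with treatment as the only term and Benjamini-Hochberg adjustment over all of them (threshold 0.05). The pseudocount of 1 understates changes of low genes. The test was checked on simulated data in which each gene varied independently, which does not cover shifts that genes share within a library. Means are given with SD (n = 3). The alternatives were pseudocounts of 0.1 and 5, filters, scalings, RPKM, no trend, a replicate block and leaving out each library. Depth came from the RPKM step of 1 read in genes shorter than 1200 bases. Gene numbers matched RefSeq (GRCm38.p6) in 97.3% of cases, and 7 listed symbols were matched through an older symbol.

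The members and gene lists were chosen with earlier results of these data known, so no list was tested as a set. Genes named with values in each library were, in each role group, the most abundant, the smallest-p and the largest-p gene (all genes in groups of 3 or fewer). From the other lists they were Foxm1, Mybl2, Cdkn1a, Cdkn1b, Ccnd1, Csf1r and the 3 called genes with the smallest p, with the smallest-p gene of the rarer direction; further genes were chosen after their values were seen.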

Additional observations from a re-analysis of the deposited data

How the results depend on the processing

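The median fold change of the 41 genes lay between -0.56 and -0.38 over all alternatives, and no fold change of these genes changed sign. The 40 calls became 11 with no filter on low values and ranged from 6 to 40 when 1 library was left out; at an unadjusted p under 0.05 at least 40 of the 41 passed in every alternative. Calls over all genes, 2856, became 1027 with no filter and 1732 without both libraries numbered 2 (an alternative chosen after seeing the data), and ranged from 550 to 5010 when 1 library was left out. Calls over the other cell cycle lists together with Csf1 and Csf1r, 113, became 28 with no filter. They ranged from 13 to 132 when 1 library was left out. Other pseudocounts, scalings, RPKM and the fit with no trend gave 40 or 41 calls. Whether the replicate numbers pair the samples cannot be told from 3 libraries per group. Deviations of same-numbered libraries correlated at 0.0703, 0.288 and 0.0387, and not every library correlated best with its own number. With the replicate block 41 of the 41 and 3638 of all genes passed, and the block added the calls of Pttg1 (adjusted p = 0.047) and Csf1r (0.013). The tables hold no counts, so counting error was not modelled.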

Other observations

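Psrc1, a spindle protein and p53 target outside the set of 41, had the largest fall among the other mitotic genes. It was at 33.6, 14.2 and 22.8 TPM with stearic acid, against 46.1, 39.8 and 51.3 TPM with vehicle (log2 -1.0, SE 0.25, limma adjusted p = 0.023). Its call was lost without stearic acid library 3 or any 1 vehicle library (adjusted p up to 0.099). Zwint, a kinetochore scaffold protein, was at 46.2, 51.6 and 48.7 TPM with stearic acid, against 44.3, 43.7 and 45.5 TPM with vehicle. Its groups thus did not overlap in the opposite direction to the 41 genes, as in 22.8% of all tested genes. It did not pass (log2 0.13, limma adjusted p = 0.19). Psrc1 and Zwint were chosen after their values were seen.

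Several of the 41 genes overlap a neighbour in RefSeq, which gives a measure beside them where reads might be shared. Aurka overlaps Cstf1 (log2 0.02, limma adjusted p = 0.83), Ccna2 overlaps Exosc9 (log2 0.08, adjusted p = 0.47) and Cdc20 overlaps Elovl1, a fatty acid elongase, which rose (log2 0.39, adjusted p = 0.022). Kif20a overlaps Brd8, which fell by 0.33 (adjusted p = 0.041), and Cdc23 (log2 -0.18, adjusted p = 0.13).

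Among tested genes outside the 41, those with CHR letters within 60 bases before to 20 bases after the start and a CCAAT box in the same window fell in 57 of 200 cases (28.5%). With both motifs anywhere in 1 window, 143 of 795 fell (18%). These compare with 1024 of 8922 (11.5%) for all tested genes with a window outside the 41. Genes with a window that held none of these letters fell in 465 of 4854 cases (9.58%). A gene with several windows can be in more than 1 of these groups. These shares describe the table, hold other mitotic genes, and were not tested.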
